A study of Mus musculus with 10 samples.

Results

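The genes described here encode the proteins of the cytosolic ribosome. They were chosen by gene symbol alone (Rpl or Rps followed by a number and at most 1 letter of a, l or x, with Rplp0, Rplp1, Rplp2 and Rpsa), and in the 3-month table only where the deposited biotype was protein coding. This gave 70 genes of 23283 named genes and joined loci in the 2.5-month table and 80 of 54427 named genes in the 3-month table, 81 in either table and 69 in both. Expression had been measured by RNA sequencing of total RNA from mouse somatosensory cortex in 2 mouse models with conditional knockout (cKO) of Nsd1, the gene of a methyltransferase for lysine 36 of histone H3. The Nex model, at 2.5 months of age, had 3 control libraries (Nex_Ctrl; replicates 1 and 2 labelled Nsd1fl/+, replicate 3 labelled Nsd1fl/fl) and 3 Nsd1Nex-cKO libraries (Nex_cKO). The Camk2a model, at 3 months, had 2 Nsd1fl/+ control libraries (Camk2a_Ctrl) and 2 Nsd1Camk2a-cKO libraries (Camk2a_cKO). All controls therefore carried at least 1 floxed Nsd1 allele, and the labels do not say whether they carried Cre. Nex and Camk2a drive Cre in excitatory neurons, so the other cells of the cortex keep Nsd1. The labels give no batch, litter or day and do not say that each library came from a separate mouse, so the p-values below measure only the spread between libraries, which may be technical. In bulk tissue, fewer cells of a type and less RNA per cell cannot be told apart.

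A cytosolic ribosome has a small subunit, which holds the decoding site and is built from the Rps proteins, and a large subunit, which holds the peptidyl transferase centre and is built from the Rpl proteins. Cells make these proteins in near-equal numbers from separate genes on many chromosomes. Their mRNAs are short and abundant, and they typically open with a C followed by an unbroken run of pyrimidines (a terminal oligopyrimidine tract), through which mTOR signalling and LARP1 control their translation. The genes have left many processed pseudogenes, so that short reads can be divided between near-identical copies, and values of single members are uncertain to that extent. The 80 coding members lay on 19 chromosomes, with 14 on chromosome 7 and 4 on X (Rpl10, Rpl36a, Rpl39 and Rps4x).

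The start sites of 7 members are shown because they carry a run of pyrimidines, a feature of most but not all member starts. They were taken from RefSeq (GRCm38.p6), run from 45 bases before to 15 bases from the annotated start onward, and are written 5′ to 3′ on the gene's own strand, with the longest pyrimidine run at the start in capitals. Their places are chr7:141447606-141447665 (plus strand) for Rplp2, chr2:39005117-39005176 (minus) for Rpl35, chr7:4792920-4792979 (plus) for Rpl28, chr3:90213634-90213693 (minus) for Rps27, chr11:114668535-114668594 (plus) for Rpl38, chr14:18270972-18271031 (minus) for Rpl15 and chr4:86857353-86857412 (minus) for Rps6.
Rplp2: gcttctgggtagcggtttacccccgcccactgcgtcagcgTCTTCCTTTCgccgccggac
Rpl35: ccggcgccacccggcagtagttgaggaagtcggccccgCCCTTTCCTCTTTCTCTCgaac
Rpl28: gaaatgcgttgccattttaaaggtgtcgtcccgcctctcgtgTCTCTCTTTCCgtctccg
Rps27: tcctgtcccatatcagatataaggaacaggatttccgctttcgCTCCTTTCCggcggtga
Rpl38: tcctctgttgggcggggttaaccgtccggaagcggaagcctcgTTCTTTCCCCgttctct
Rpl15: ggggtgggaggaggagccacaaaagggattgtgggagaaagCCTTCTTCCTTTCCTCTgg
Rps6: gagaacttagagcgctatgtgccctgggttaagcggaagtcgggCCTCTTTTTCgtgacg

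The capitals span 10 bases in Rplp2, 18 in Rpl35, 11 in Rpl28, 9 in Rps27, 10 in Rpl38, 17 in Rpl15 and 10 in Rps6. RefSeq windows were matched for 60 of the 80 coding members, with 72 start sites. A run of at least 8 pyrimidines on the gene's strand, between 25 bases before and 50 bases after the start, was found at 50 of those 72 starts (69.4%) and at 8921 of all 32851 starts (27.2%). The motif CCGGAA, the core bound by ETS factors such as GABPA, was found on either strand of the 300-base window at 34 of 72 member starts (47.2%) and at 14.9% of all starts. These matches describe letters in a window and not binding or translation.

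Levels were deposited as FPKM, fragments per kilobase of transcript scaled to the mapped fragments of the library. In Nex_Ctrl the 67 members that passed the filter on low values (a level of 1 FPKM or more in 3 or more libraries) had a median mean level of 257 FPKM, with quartiles of 167 and 360, against 10.1 FPKM for all genes tested, and 29 of the 200 genes of highest level were members. The highest were Rplp1 with 1368 ± 32.0 FPKM (SD, n = 3), Rpl38 with 1132 ± 137 and Rps27 with 767 ± 100. Rplp1 encodes an acidic protein of the stalk, the flexible arm that recruits elongation factors. The lowest were Rpl41 with 5.01 ± 0.902 FPKM, Rps4l with 12.7 ± 3.27 and Rps27l with 32.0 ± 4.73. The low row of Rpl41 did not hold most of its signal, because a joined locus named after Rpl41 and its neighbour Zc3h10 had 655 FPKM in Nex_Ctrl. Rps4l was annotated as a transcribed processed pseudogene in the 3-month table and is kept here because the 2.5-month table gives no biotype.

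The median coefficient of variation of the members was 6.27% over the 3 Nex_Ctrl libraries and 7.88% over the 2 Camk2a_Ctrl libraries, with the widest spread in Rps4l (25.8%) and Rpl24 (47.7%). In Camk2a_Ctrl the 76 members tested had a median level of 49.7 FPKM, against 5.92 FPKM for all genes tested, and 5 of the 200 highest genes were members. The highest were Rplp1 with 541 ± 82.6 FPKM (SD, n = 2), Rps15 with 241 ± 34.8 and Rpl4 with 192 ± 13.5, and the lowest were Rpl24 with 2.74 ± 1.31, Rpl13a with 4.13 ± 0.318 and Rpl21 with 6.79 ± 1.50. The 2 tables use separate gene models and lengths, so levels cannot be set against each other. Over the 65 members tested in both, the Spearman correlation of the control levels was 0.26, and the Nex_Ctrl value was a median of 4.70 times the Camk2a_Ctrl value. A further 289 rows of the 3-month table were pseudogenes named after a member, 54 of them with 1 FPKM or more in 2 or more libraries, with summed levels of 757 and 790 FPKM in Camk2a_Ctrl and 665 and 731 FPKM in Camk2a_cKO.

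Copies expressed mainly outside the brain were at or near 0 in both tables. Rpl10l, a retrogene of the X-linked Rpl10 used in male germ cells, was listed at 0 in all 10 libraries. Rpl3l, the copy of Rpl3 in heart and skeletal muscle, lay between 0 and 0.399 FPKM in the Nex libraries and between 0.106 and 0.216 FPKM in the Camk2a libraries. Rpl39l lay between 0 and 0.220 FPKM and between 0 and 0.490 FPKM. Their broadly expressed partners had 301 ± 20.0 FPKM (Rpl10), 251 ± 1.20 FPKM (Rpl3) and 346 ± 24.4 FPKM (Rpl39) in Nex_Ctrl (SD, n = 3).

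The Nex comparison asked whether ribosomal protein mRNA differed in cortex after Nsd1 was deleted in postmitotic excitatory neurons. Of the 67 members tested, 1 was lower and none was higher in Nex_cKO. Rps20, a protein of the small subunit head, was the lower one. Over all 12528 genes tested, 4.47% were higher and 4.06% lower, so the 1 lower member of 67 was below the background share. The test was limma on log2(FPKM + 1) with Benjamini-Hochberg adjustment over all genes and a threshold of 0.05. At an unadjusted p under 0.05, 18 members were lower and 1 was higher, against 1832 lower and 1112 higher of all genes. The 2 groups did not overlap, with every Nex_cKO library below every control, for 17 members (25.4%), where the background was 18.9%, and with every Nex_cKO library above for 1 member, Rpl15, where it was 11.5%.

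Rps20 had 388, 342 and 413 FPKM in the controls and 257, 313 and 270 FPKM in Nex_cKO replicates 1, 2 and 3. All 3 Nex_cKO libraries lay below the lowest control. The log2 change was -0.44 (SE 0.110, adjusted p 0.0416 by limma). This call rested on single libraries: the adjusted p by limma was 0.152 without Nex_Ctrl replicate 1, 0.0553 without replicate 2, 0.171 without replicate 3 and 0.149 without Nex_cKO replicate 1. Without Nex_cKO replicate 3 the change was -0.42 and the adjusted p 0.0451. The call also ended after quantile normalization (-0.26, adjusted p 0.156), after median ratio rescaling (adjusted p 0.0519) and without the filter (adjusted p 0.0726).

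**Figure D1:**
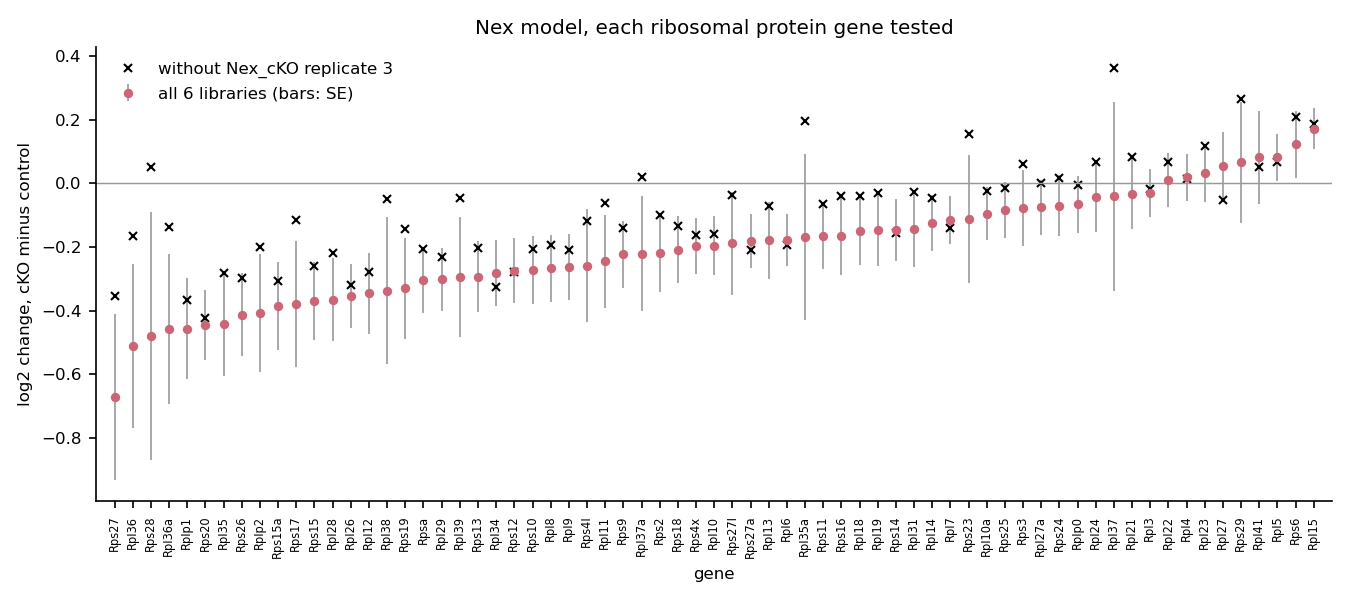
Log2 change (Nex_cKO minus Nex_Ctrl, log2(FPKM + 1) scale, vertical axis) of each of the 67 ribosomal protein genes tested, ordered by size; circles with bars are the change over all 6 libraries ± SE, and crosses the change without Nex_cKO replicate 3. The changes run from -0.67 for Rps27 to 0.17 for Rpl15, and most crosses lie above their circles.

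On the deposited scale most members had a small negative change. The change was negative for 58 of 67 members, with a median of -0.20 and quartiles of -0.32 and -0.08, while the median of all genes was -0.04 and 59.5% of them were negative. This lean depended on the scaling: after quantile normalization 40 members were negative and 27 positive, with a median of -0.03. The median SE of a member was 0.109. The 39 large subunit members had a median of -0.17 and no call, and the 28 small subunit members had a median of -0.22 with Rps20 the only call. The summed FPKM of the members was 5.28, 5.06 and 5.02% of all named rows in the controls and 4.73, 5.04 and 4.19% in Nex_cKO replicates 1, 2 and 3, so that replicate 2 lay within the control range.

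The size of this shift differed between the 3 knockout libraries. Each library's deviation is its log2(FPKM + 1) minus the control mean. The median deviation of the members was 0.07, -0.06 and -0.00 (-0.00376) in Nex_Ctrl replicates 1 to 3, and -0.13, -0.03 and -0.39 in Nex_cKO replicates 1 to 3. The median of all genes was -0.04, -0.03 and -0.05 in those knockout libraries. Nex_cKO replicate 3 was the lowest of the 6 libraries for 54 of the 67 members. Without it, the median change of the members was -0.07 against -0.04 for all genes, 49 were negative and 18 positive, and Rps20 was still called lower. Without Nex_cKO replicate 2, the median was -0.28 and 11 of 67 members were lower (Rpl12, Rpl26, Rpl29, Rpl35, Rplp1, Rplp2, Rps13, Rps15a, Rps20, Rps26 and Rps27). Over all 12674 genes tested in that setting, 685 were lower and 580 higher, and the median of all genes was -0.05.

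**Figure D2:**
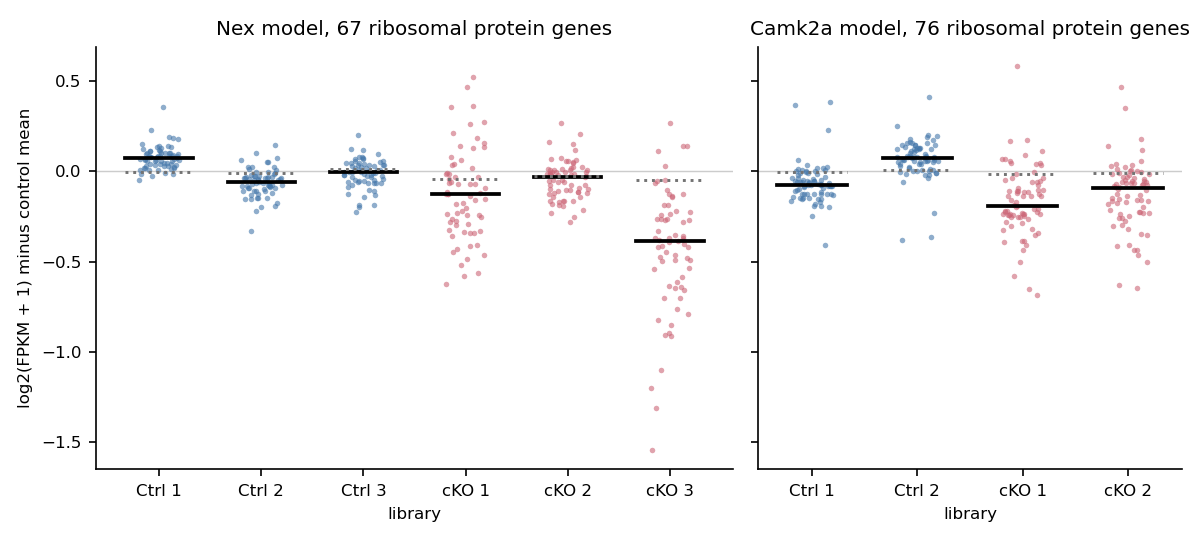
Deviation of each ribosomal protein gene from its control mean (log2(FPKM + 1), vertical axis) in every library of the Nex model (left, 67 genes) and the Camk2a model (right, 76 genes); points are genes, black bars their medians and dotted grey bars the median of all genes tested. Nex_cKO replicate 3 has the lowest median, -0.39, and Nex_cKO replicate 2 has -0.03.

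The unnamed rows took 41.6% of all FPKM in Nex_cKO replicate 3, against 2.33 to 19.4% in the other 5 Nex libraries. Ribosomal protein mRNAs are short, and the length used here is the median over a gene's principal transcripts in GENCODE M21. It had a median of 744 bases in the 67 members and of 2776 bases in all genes tested, and 48 members, but 8.87% of all genes, had under 1000 bases. In Nex_cKO replicate 3 the 10 members under 500 bases had a median deviation of -0.91 and the 86 other genes of that length -0.26. From 500 to under 1000 bases, the 38 members had -0.38 and the 890 other genes -0.21. From 1000 to under 2000 bases, the 15 members had -0.27 and the 2613 other genes -0.15. Members were thus lower than other genes of like length in this library in each of these bins. These other genes were matched on length and not on level, and members were far more abundant. Across members, the Spearman correlation of deviation with control level was -0.60, -0.39 and -0.43 in Nex_cKO replicates 1 to 3. Control level also enters the deviation itself. The part of length or of level in the members' shift was not tested.

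The length trend of the other genes depended on how a gene's length was defined. With the shortest principal transcript in place of the median, a definition tried after the first had given its result, the deviation in Nex_cKO replicate 3 was -0.56 in 18 members and -0.04 in 910 other genes under 500 bases, and -0.39 in 36 members and -0.10 in 1505 other genes from 500 to under 1000 bases. Across all genes, the Spearman correlation of deviation with length in this library was 0.26 with the median length and 0.18 with the shortest. A trend of like size was present in a control, Nex_Ctrl replicate 2 (0.21 and 0.12), and one of the opposite sign in Nex_Ctrl replicate 3 (-0.16 and -0.11), while the other 3 Nex libraries lay between -0.05 and 0.01. Controls are measured against a mean that includes them. Across members the correlation in Nex_cKO replicate 3 was 0.42 and 0.33. Neither definition describes every member, since Rps20 has 3706 bases under both. A smooth length trend was then removed from every library. The median change of the members was -0.11 with the gene length deposited for the 3-month model, matched by gene name. It was -0.09 with the median transcript and -0.12 with the shortest transcript. Rps20 was lower under all 3, and Rpl15 was higher under the first and the last. Rps20 counts as long under each length (4080 bases under the first). Its call therefore could not be tested against the trend of short mRNAs.

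**Figure D3:**
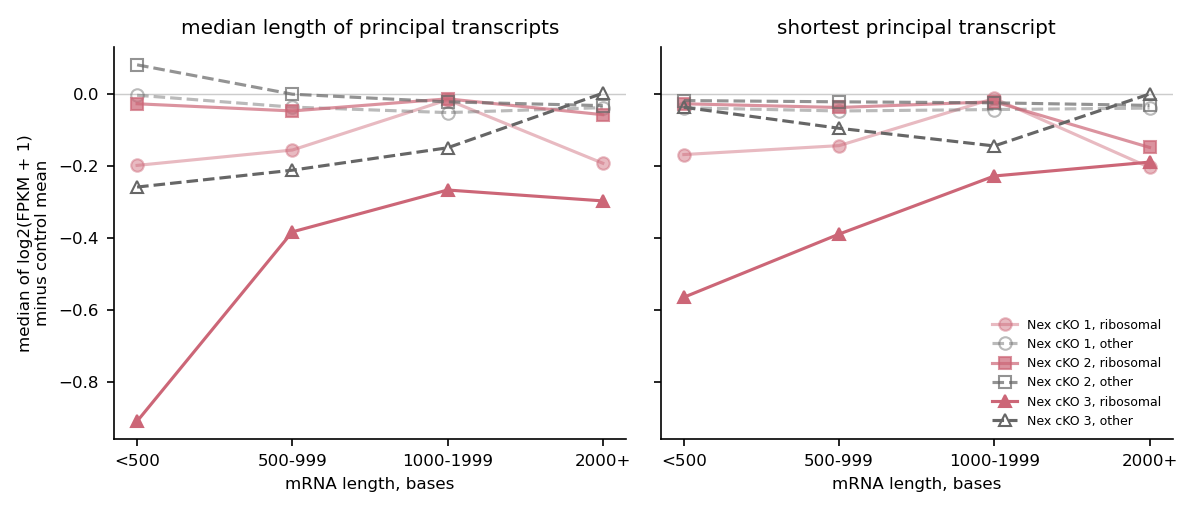
Median deviation from the control mean (log2(FPKM + 1), vertical axis) by mRNA length (horizontal axis, bases) in the 3 Nex_cKO libraries, for ribosomal protein genes (filled symbols, solid lines) and other genes (open symbols, dashed lines); the left panel uses the median length of a gene's principal transcripts and the right panel the shortest. The members of Nex_cKO replicate 3 reach -0.91 on the left and -0.56 on the right below 500 bases.

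Among the stalk proteins, Rplp0 anchors the arm and Rplp1 and Rplp2 form its tip. Rplp1 had 1360, 1341 and 1403 FPKM in the controls and 888, 1265 and 879 FPKM in Nex_cKO, a log2 change of -0.46 (SE 0.159, adjusted p 0.123). The groups did not overlap, and replicate 2 was the closest to the controls. Rplp2 had 444, 395 and 441 FPKM in the controls and 319, 431 and 240 FPKM in Nex_cKO, where replicate 2 lay inside the control range. Its log2 change was -0.41 (SE 0.186, adjusted p 0.230). Rplp0 had 134, 120 and 113 FPKM and then 121, 123 and 107 FPKM, with overlapping groups and a log2 change of -0.07 (adjusted p 0.710).

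In the small subunit, Rps27, a zinc finger protein, had the most negative change of the family. It had 832, 819 and 652 FPKM in the controls and 509, 701 and 307 FPKM in Nex_cKO, a log2 change of -0.67 (SE 0.262, adjusted p 0.164) that was -0.35 without Nex_cKO replicate 3. Its paralogue Rps27l, a p53 target, had 32.2, 27.2 and 36.7 FPKM and then 27.1, 35.4 and 22.3 FPKM, with overlapping groups. Rps6, the substrate of S6 kinase, had 71.5, 70.1 and 67.8 FPKM in the controls and 89.9, 72.7 and 67.4 FPKM in Nex_cKO, of which only replicate 1 stood clearly above. Rps27a, which encodes a fusion of ubiquitin with a ribosomal protein, had 287, 251 and 266 FPKM and then 227, 236 and 245 FPKM; every knockout library was lower (log2 change -0.18, adjusted p 0.238).

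Rpsa, which binds the small subunit and is also known as the laminin receptor, had 183, 158 and 167 FPKM in the controls and 142, 151 and 120 FPKM in Nex_cKO. The groups did not overlap (log2 change -0.30, SE 0.103, adjusted p 0.116). Rps19, whose human counterpart is the most frequently mutated gene in Diamond-Blackfan anaemia, had 329, 276 and 307 FPKM and then 259, 291 and 186 FPKM, with overlapping groups (log2 change -0.33, adjusted p 0.250). The X-linked Rps4x had 258, 221 and 244 FPKM and then 217, 214 and 199 FPKM, all below the controls (log2 change -0.20, adjusted p 0.216).

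In the large subunit, Rpl15 was the one member whose 3 knockout libraries all lay above the controls. It had 57.9, 57.6 and 56.1 FPKM in the controls and 66.5, 64.2 and 63.2 FPKM in Nex_cKO, a log2 change of 0.17 (SE 0.0630, adjusted p 0.138), which was past the threshold after quantile normalization (0.27, adjusted p 0.0347). Rpl26, which sits near the exit tunnel, had 543, 491 and 557 FPKM in the controls and 398, 452 and 395 FPKM in Nex_cKO, with no overlap (log2 change -0.35, SE 0.101, adjusted p 0.0680). Rpl5 and Rpl11 carry 5S rRNA into the ribosome and, when free, bind MDM2. Rpl5 had 72.3, 71.6 and 67.5 FPKM and then 78.5, 69.5 and 76.2 FPKM, and Rpl11 had 324, 314 and 329 FPKM and then 297, 321 and 211 FPKM. Neither passed the test (log2 changes 0.08 and -0.25, adjusted p 0.548 and 0.360), and both had overlapping groups.

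Rpl3, which lies at the peptidyl transferase centre, had 252, 250 and 252 FPKM in the controls and 258, 239 and 242 FPKM in Nex_cKO. Rpl10, which completes that centre, had 307, 279 and 318 FPKM and then 254, 285 and 250 FPKM, with overlapping groups (log2 change -0.20, adjusted p 0.246). Rpl22 had 34.8, 31.7 and 31.0 FPKM and then 35.6, 32.5 and 30.1 FPKM. Rpl39 had 373, 336 and 328 FPKM and then 329, 340 and 199 FPKM, and its log2 change of -0.29 was -0.04 without Nex_cKO replicate 3. The knockout values of Rpl3 and Rpl22 lay on both sides of the controls or within them, and Rpl39 was low in a single library.

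**Figure D4:**
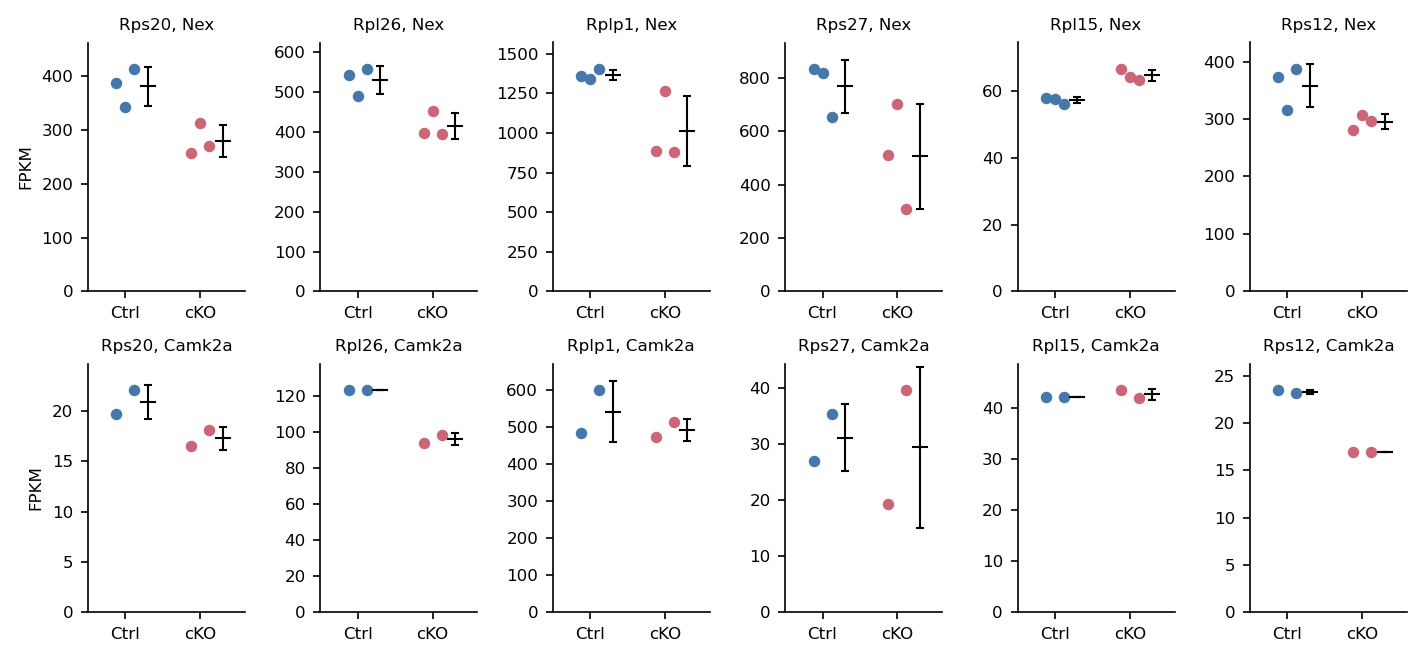
FPKM (vertical axes, from 0) of 6 ribosomal protein genes in each library of the Nex model (upper row) and the Camk2a model (lower row); blue points are controls, red points cKO, and bars beside them the mean ± SD. Rps20 and Rpl26 are lower in every cKO library of both models. The same holds for Rpl7, Rpl9, Rpl34, Rpl36a, Rps4x, Rps12, Rps26 and Rpsa, whether plotted here or not. The share of all genes with this pattern was not counted. Rpl15 lies higher in every cKO library of the Nex model (adjusted p 0.138 by limma).

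A few members of very short mRNA, chosen after their values were seen, were lowest by far in Nex_cKO replicate 3. Rps28, Rps27, Rpl36 and Rpl36a lay 1 or more log2 units below the control mean there, at -1.54, -1.31, -1.20 and -1.10. Rps28 had 192, 183 and 154 FPKM in the controls and 225, 147 and 59.7 FPKM in Nex_cKO, so that its knockout libraries lay on both sides of the controls. Rpl38 had 1286, 1088 and 1023 FPKM and then 1055, 1125 and 598 FPKM. Only 5 members were above the control mean in this library (Rpl4, Rpl5, Rpl15, Rpl27 and the low own row of Rpl41).

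Of the coding members, 11 had no row of their own among the 2.5-month values and were found only in loci joined with a neighbour or a small nucleolar RNA of an intron. With the locus of Rpl41, 12 joined loci held a member. All 12 had a negative change, from -0.73 to -0.04, with a median of -0.17 that was -0.08 without Nex_cKO replicate 3, and none passed the test. The locus of Rps21 and Mir3091 had 813, 699 and 605 FPKM in the controls and 557, 613 and 219 FPKM in Nex_cKO. The locus of Rpl41 and Zc3h10 had 653, 644 and 668 FPKM and then 702, 681 and 237 FPKM, with only replicate 3 below the controls.

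Other genes of protein synthesis and mitochondria were read beside the family in the Nex model. Of 63 mitochondrial ribosomal protein genes, 4 were lower and none higher, with a median of -0.15 that was -0.04 without Nex_cKO replicate 3. They were Mrps12 and the 3 of smallest p, of which Mrpl44 had 15.2, 13.9 and 15.9 FPKM in the controls and 10.6, 11.2 and 10.2 FPKM in Nex_cKO (log2 change -0.45, adjusted p 0.00950). Mrpl54 changed by -0.45 (adjusted p 0.0121) and Mrps35 by -0.37 (adjusted p 0.0319). Of 66 nuclear genes of the respiratory chain none passed the test, with a median of -0.17 that was -0.04 without that library. Of 33 ribosome biogenesis genes 1 was lower, the small subunit maturation nuclease Nob1 (log2 change -0.28, adjusted p 0.0459, and 0.0601 without Nex_cKO replicate 3), with a list median of -0.04. Of 21 translation factors, many with the same kind of mRNA start, none passed the test, and their median was -0.08. Of 12 p53 targets 1 was lower, Phlda3 (-0.78, adjusted p 0.0130), with a median of -0.08. The 8 snoRNA host RNAs had no call and a median of -0.14, and the 10 Diamond-Blackfan anaemia genes, all members, had no call and a median of -0.26. The 6 ribosomal genes named outside the symbol rule had no call and a median of -0.16.

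Marker lists of cell types were also summed in the Nex model, and the groups overlapped for the microglia, astrocyte and GABAergic lists. The endothelial list had 89.5, 67.1 and 79.2 FPKM in the controls and 54.2, 55.9 and 43.2 FPKM in Nex_cKO over 5 of 6 genes measured, and 2 of 5 were lower, Egfl7 (-0.85, adjusted p 0.00689) and Cldn5 (-0.63, adjusted p 0.0391, and 0.0553 without Nex_cKO replicate 3). The oligodendrocyte list had 1343 to 1456 FPKM in the controls and 1034 to 1249 FPKM in Nex_cKO, 6 of 6 with a negative change and none past the test. The microglia list had 134 to 161 and then 152 to 173 FPKM, 6 of 6 with a positive change and none past the test. The excitatory neuron list, the labelled target, had 1418 to 1514 FPKM in the controls and 1263 to 1390 FPKM in Nex_cKO. Of its 6 genes, Tbr1 (-0.46, adjusted p 0.00333) and Neurod6 (-0.80, adjusted p 0.00719) were lower and Neurod2 (0.35, adjusted p 0.0354) was higher. The astrocyte list had 220 to 259 and then 241 to 275 FPKM, and the GABAergic list 707 to 826 and then 507 to 814 FPKM. One gene of each was higher, Gfap (0.82, adjusted p 0.00605) and Gad2 (0.63, adjusted p 0.00203), and the median change of the 6 GABAergic genes was 0.08. The list of choroid plexus and neighbouring regions had 5.59 to 6.13 FPKM in the controls and 6.36 to 7.82 FPKM in Nex_cKO, with no gene past the test. Of 5 blood genes only 1 was measured, at 0.970 to 2.18 and then 0.377 to 0.721 FPKM, under the filter. The part of cell composition in the members' shift was not tested.

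The Camk2a comparison asked the same of cortex in which Nsd1 had been deleted later, in mature excitatory neurons. No member passed the test among 76, and none of 12919 genes did (0.0% higher and 0.0% lower, limma). At an unadjusted p under 0.05, 17 members were lower and none was higher, against 433 lower and 466 higher of all genes. By voom on the recovered reads, 1 gene of all was higher and no member was called. Nsd1 itself had 5.61 and 8.87 FPKM in Camk2a_Ctrl and 4.31 and 4.99 FPKM in Camk2a_cKO (log2 change -0.52, adjusted p 0.685). In the 2.5-month table Nsd1 had no row of its own.

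Most members again had a small negative change. The change was negative for 66 of 76, with a median of -0.14 and quartiles of -0.24 and -0.05. Over all genes the median was -0.01, and 52.5% were negative. Both Camk2a_cKO libraries lay below both controls for 35 members (46.1%), against a background of 21.1%, and above both for 1 member, Rpl13a, against 16.2%. The median deviation was -0.08 and 0.08 in Camk2a_Ctrl replicates 1 and 2 and -0.19 and -0.09 in Camk2a_cKO replicates 1 and 2. Camk2a_Ctrl replicate 2 was the highest of the 4 libraries for 55 of the 76 members. Without it, the median was -0.08 with 50 members negative, and without Camk2a_Ctrl replicate 1 it was -0.20 with 72 negative. Of all genes under 1000 bases other than members, the median deviation was 0.11 in Camk2a_cKO replicate 1 and -0.01 in replicate 2, while that of the 54 members of that length was -0.20 and -0.13. With the shortest transcript, other genes had 0.03 and 0.00 (0.000161) and 61 members -0.21 and -0.13.

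Reads could be recovered from this table, and the members held 0.750% (95% Wilson interval 0.746 to 0.754) and 0.833% (0.829 to 0.837) of all reads in the controls and 0.746% (0.742 to 0.750) and 0.741% (0.737 to 0.745) in the cKO libraries. The intervals cover counting error only. The controls differed from each other by more than Camk2a_Ctrl replicate 1 differed from either knockout library. The share also depended on what was counted. Of the FPKM of named rows, members held 1.631 and 1.881% in the controls and 1.698 and 1.708% in Camk2a_cKO, with overlap. Without mitochondrially encoded genes, the shares were 2.139 and 2.395% and then 2.085 and 2.123%, without overlap. Totals were 17521841 and 20074933 reads in the controls and 16901717 and 16943855 in the cKO libraries. The median member had 1362 reads, and the least counted, Rpl24, had 23 in its lowest library.

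The 4 members of smallest p among those with a negative change were Rps12, Rpl26, Rpl21 and Rpl17. Rps12 had 23.5 and 23.2 FPKM in the controls and 16.9 and 16.9 FPKM in Camk2a_cKO, a log2 change of -0.44 (SE 0.0890, adjusted p 0.445). Rpl26 had 123 and 123 FPKM and then 93.8 and 98.5 FPKM (-0.36, SE 0.0861, adjusted p 0.477). Rpl21 had 5.73 and 7.85 FPKM and then 4.16 and 3.94 FPKM (-0.61, SE 0.152, adjusted p 0.501). Rpl17 had 47.6 and 52.0 FPKM and then 37.8 and 38.8 FPKM (-0.37, SE 0.0930, adjusted p 0.501 by limma). Its pseudogene Rpl17-ps10 had a higher level, with 143 and 145 FPKM and then 113 and 128 FPKM. The row of Rpl17 may thus hold only part of a shared signal. In each of the 4, both knockout libraries lay below both controls, and none passed the test.

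Among members with a positive change the smallest p values belonged to Rpl13a, Rpl8, Rps13 and Rpl11. Rpl13a, known for a role in silencing inflammatory mRNAs, had 3.90 and 4.35 FPKM in the controls and 4.78 and 4.64 FPKM in Camk2a_cKO (0.16, SE 0.110, adjusted p 0.852). Rpl8 had 110 and 131 FPKM and then 125 and 136 FPKM, Rps13 had 7.60 and 14.2 FPKM and then 11.0 and 14.8 FPKM, and Rpl11 had 29.1 and 33.8 FPKM and then 32.3 and 34.2 FPKM. The last 3 had overlapping groups.

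Rps20, the member called in the Nex model, had 19.7 and 22.0 FPKM in Camk2a_Ctrl and 16.5 and 18.0 FPKM in Camk2a_cKO, a log2 change of -0.26 (SE 0.105, adjusted p 0.706) with no overlap. Rplp1 had 483 and 600 FPKM and then 472 and 513 FPKM, and Rplp2 had 25.2 and 31.9 FPKM and then 30.2 and 27.6 FPKM, both with overlap. Rplp0 had 94.5 and 95.7 FPKM and then 80.6 and 89.4 FPKM, without overlap (-0.16, adjusted p 0.808). Rps6 had 96.2 and 101 FPKM and then 84.8 and 84.0 FPKM (-0.23, adjusted p 0.685), and Rps4x had 101 and 104 FPKM and then 86.6 and 87.2 FPKM (-0.23, adjusted p 0.662), both without overlap. Rpl41, the shortest protein of the ribosome, had 110 and 101 FPKM and then 90.5 and 89.0 FPKM here (-0.24, adjusted p 0.685).

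By role in the Camk2a model, the 46 large subunit members had a median of -0.12 and the 30 small subunit members of -0.20. The 76 mitochondrial ribosomal protein genes had a median of 0.00 (0.00159), with 38 positive and 38 negative, and the 73 nuclear respiratory chain genes had 0.02, with 50 positive. The 22 translation factors had a median of -0.12, with 19 negative and 3 positive. The medians were -0.01 for 41 biogenesis genes, -0.05 for 12 p53 targets, 0.11 for 11 snoRNA host RNAs, -0.20 for 10 Diamond-Blackfan anaemia genes and -0.05 for 7 ribosomal genes outside the symbol rule. None of these lists had a call. Endothelial markers summed to 37.4 and 34.6 FPKM in the controls and 50.1 and 47.9 FPKM in Camk2a_cKO. The 5 blood genes summed to 80.4 and 101 FPKM and then 159 and 124 FPKM, and the astrocyte list to 356 and 387 and then 402 and 394 FPKM. The groups overlapped for the excitatory neuron, GABAergic, oligodendrocyte, microglia and choroid plexus lists. No marker gene passed the test. The part of cell composition in the members' values was not tested.

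Between the models, the difference of the changes (Nex minus Camk2a) was tested by limma over 10402 genes, of which 0.375% were higher and 0.154% lower. None of the 66 members passed (the 65 coding members tested in both tables and the pseudogene Rps4l), and 3 had an unadjusted p under 0.05. These were Rpl21 (0.58, SE 0.189, adjusted p 0.227), Rpl8 (-0.39, SE 0.160, adjusted p 0.338) and Rps6 (0.35, SE 0.152, adjusted p 0.358). The median difference of the members was -0.04, the same to 2 decimals as that of all genes, and it was 0.04 without Nex_cKO replicate 3. Of 65 members tested separately in both models, 50 were negative in both and 2, Rpl15 and Rpl22, were positive in both. In each model alone, 86.6% (Nex) and 86.8% (Camk2a) of members were negative, against 59.5% and 52.5% of all genes. With such leans many members are negative in both without agreement gene by gene, and the share of all genes negative in both was not counted. The Spearman correlation of the changes was 0.03 across the 65 members, which are not independent replicates.

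**Figure D5:**
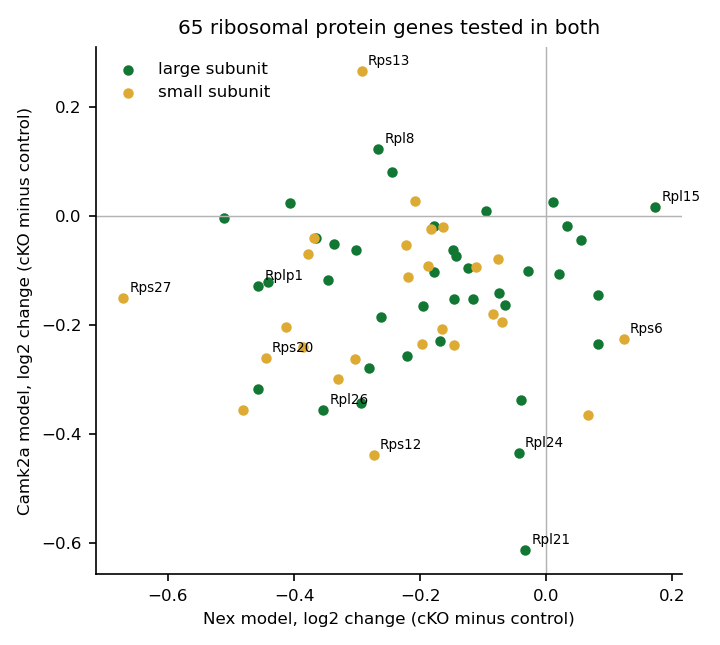
Log2 change (cKO minus control, log2(FPKM + 1) scale) in the Nex model (horizontal axis) and the Camk2a model (vertical axis) of the 65 ribosomal protein genes tested in both, coloured by subunit, with 11 genes named. Most points, 50 of 65, lie below 0 on both axes, and the Spearman correlation is 0.03. In each model alone, 86.6% (Nex) and 86.8% (Camk2a) of members tested are below 0.

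By the start-site feature printed above, the 42 members tested in the Nex model that had a pyrimidine run at a matched start had a median change of -0.21, and the 11 without one had -0.08. In the Camk2a model, the medians were -0.14 over 45 members and -0.08 over 11. Rplp2, Rpl35, Rpl28, Rps27 and Rpl38, of the sequences shown, had negative changes in the Nex model, while Rpl15, with a run of 17, and Rps6 had positive ones. This is a description, without a test.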

How the data were processed

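The authors deposited FPKM values in 1 table per model. Per the submitters' processing notes, the tools were Cufflinks 2.2.1, STAR, DESeq2 and cutadapt and the builds mm10 and GRCm38, with no role given. In the 3-month table FPKM times deposited length gave whole reads for 100.0% of values above 0 (tolerance 0.1). In the 2.5-month table depth is unknown. Rows without a gene name were left out, and of repeated names the row of highest mean was kept. Genes reaching FPKM 1 in 3 libraries (Nex) or 2 (Camk2a) were compared by limma 3.58.1 (R 4.3.3; eBayes with intensity trend) on log2(FPKM + 1), which understates changes of low genes; adjusted p-values are Benjamini-Hochberg over all genes, two-sided. Fits were tested on simulated data. Members, lists and named genes (members past the threshold, or the 4 of smallest p in each direction; a set of paralogues and well-known members; the 3 highest and lowest; up to 3 called genes per other list) were chosen with earlier results of these data known. Rpl35, Rps26, Rpl28, Rps28, Rpl36, Rpl36a and the printed start sites were added after values were seen. Transcript lengths were taken first as the median and then as the shortest of APPRIS principal transcripts of GENCODE M21; both are given because they differ. Some members without a row of their own are not reported here by name.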

Additional observations from a re-analysis of the deposited data

How the results depend on the processing

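In the Nex model 1 member was lower and none higher. No member was lower without the filter, after quantile normalization (Rps20 adjusted p 0.156 by limma), after median ratio rescaling (0.0519) or with the replicate block (0 lower; Rps20 adjusted p 0.120). The number lower ran from 0 to 11 when single libraries were left out, and the median change from -0.28 to -0.07. Over all genes, the number lower ran from 160 to 685 in those fits, with 685 in the fit that had 11 members lower. Quantile normalization moved the median to -0.0348, with 40 members negative and 27 positive. Under it, and under the corrections by the gene length of the 3-month model and by shortest transcript, 1 member (Rpl15) was higher. Both transcript-length corrections were added after seeing the data, the shortest after the median. The cause of these changes was not tested. The deviations of same-numbered Nex libraries were little correlated (0.02, -0.10 and -0.10). Both same-numbered Camk2a pairs had 0.05. With 2 libraries a group, deviations from the group mean are mirror images, so these pairs necessarily share a value. Low correlations over all genes cannot exclude a shared litter or day, so whether the numbers pair libraries stays undecided. In the Camk2a model no setting called a member, and the median lay between -0.20 and -0.08 throughout; leaving out a library leaves 1 sample in a group, assumed to vary like the other group. The difference between models had no member called under the 2 alternatives run. With 2 or 3 libraries a group, changes near the median SE of 0.109 cannot be resolved.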

Other observations

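Near-identical copies shared signal unevenly in the 3-month table. Rps27 had 27.0 and 35.4 FPKM in Camk2a_Ctrl and 19.3 and 39.7 FPKM in Camk2a_cKO, while its retrogene Rps27rt had 104 and 108 FPKM and then 85.6 and 35.5 FPKM. Summed over both rows, the recovered reads were 1151 and 1531 in the controls and 929 and 919 in the cKO libraries. Rps10 was under the filter, with 0.503 and 0.416 FPKM and then 0.948 and 0.618 FPKM, while Rps10-ps2 had 63.6 and 75.2 FPKM and then 55.4 and 62.5 FPKM. Rps27a had 37.0 and 21.4 FPKM in the controls and 42.6 and 17.9 FPKM in the cKO libraries, so that its replicates differed more than its groups. Rps3a1, a ribosomal protein gene outside the symbol rule, had 271, 240 and 258 FPKM in Nex_Ctrl, 213, 222 and 222 FPKM in Nex_cKO, 280 and 261 FPKM in Camk2a_Ctrl and 214 and 238 FPKM in Camk2a_cKO, lower in every cKO library of both models without passing the test in either (adjusted p 0.135 and 0.685 by limma).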
